A study of Mus musculus with 6 samples.

Results

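The synaptic vesicle and release machinery was followed through 37 genes. Their products form the vesicle membrane, drive its fusion with the presynaptic membrane, organize the active zone where fusion takes place, or retrieve and refill the vesicle afterwards. The genes were taken by symbol from a hand-made list, and all 37 were found among the 25576 genes of the files. All 37 also passed the minimum mean of 0.5 FPKM (fragments mapped to a gene, scaled by its exon length and by the size of the library), so that each was among the 17088 genes tested.

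The values come from bulk RNA-seq of spinal cord of FVB mice at postnatal day 4. The 3 libraries labelled SMA are from Taiwanese SMA mice, a severe model of spinal muscular atrophy with the genotype mSmn-/-, hSMN22tg/0, in which both copies of mouse Smn are disrupted in every cell. The 3 libraries labelled control are from heterozygous mice, mSmn+/-, hSMN22tg/0. Both groups carry the human SMN2 transgene, and the control mice are not wild type, since they lack a copy of mouse Smn. The methods of the study speak of triplicates with n = 1 per group, so it is not certain that the 3 libraries of a group are separate animals, and the p-values below measure the spread between libraries only. The comparison asks which genes differ between SMA and control cord at this age.

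At a synapse, neurotransmitter is packed into vesicles by a gradient that the proton pump of the vesicle sets up, and a calcium signal makes docked vesicles fuse. Fusion is driven by SNARE proteins, which zip together between vesicle and presynaptic membrane, while synaptotagmins sense the calcium and complexins hold the SNARE complex ready. In the spinal cord the machinery is present in motor neurons, whose terminals lie in muscle, and in the interneurons, sensory afferents and descending axons that contact them.

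Control replicate 2 stood apart from the other 5 libraries. Its correlation with them on log2(FPKM + 1) over the genes tested lay between 0.836 and 0.849, while the other libraries correlated with each other at 0.983 or above. All 25 hepatocyte markers were highest in it, with a summed level of 36356 FPKM against 69.8 to 148 in the others, and the most abundant, the albumin gene Alb, was at 15895 FPKM there against 24.6 to 56.2. All 7 erythroid markers found were highest in it too, with a sum of 18823 FPKM against 1115 to 1861. All 37 vesicle and release genes had their lowest value in control replicate 2, at 44.5% to 73.5% of their mean in the other 5 libraries (median 57.5%). Over all genes tested that median was 88.6%, and 44.9% of them were lowest in this library. Together the 37 genes made up 0.413% of the summed FPKM of control replicate 2 and 0.753% to 0.859% of that of the others.

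A list of 12 neuronal genes outside the vesicle machinery was also low in control replicate 2. Of the 12, 10 were lowest there, each at 49.6% to 66.8% of its mean in the other libraries. The exceptions were Meg3, the most abundant of the list, at 812 FPKM against 675 to 978, and Snhg11 at 374 FPKM against 337 to 493, both long noncoding RNAs. They were at 92.3% and 87.6%. The summed level of the list, in which abundant genes such as these weigh most, was at 69.5%. The oligodendrocyte list, by contrast, was at 92.9% in summed level and none of its 5 genes was lowest in control replicate 2. The astrocyte list was at 83.9%. Of its 5 genes 4 were lowest there, Aqp4 and Gfap only by a small margin, and Aldh1l1 was at 182% of its mean in the other libraries. In bulk tissue, fewer cells of a type and less RNA per cell cannot be told apart. The part of these other markers in the low values of the vesicle genes was not tested. The counts and fold changes below are therefore given with all 6 libraries and without control replicate 2.

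**Figure D1:**
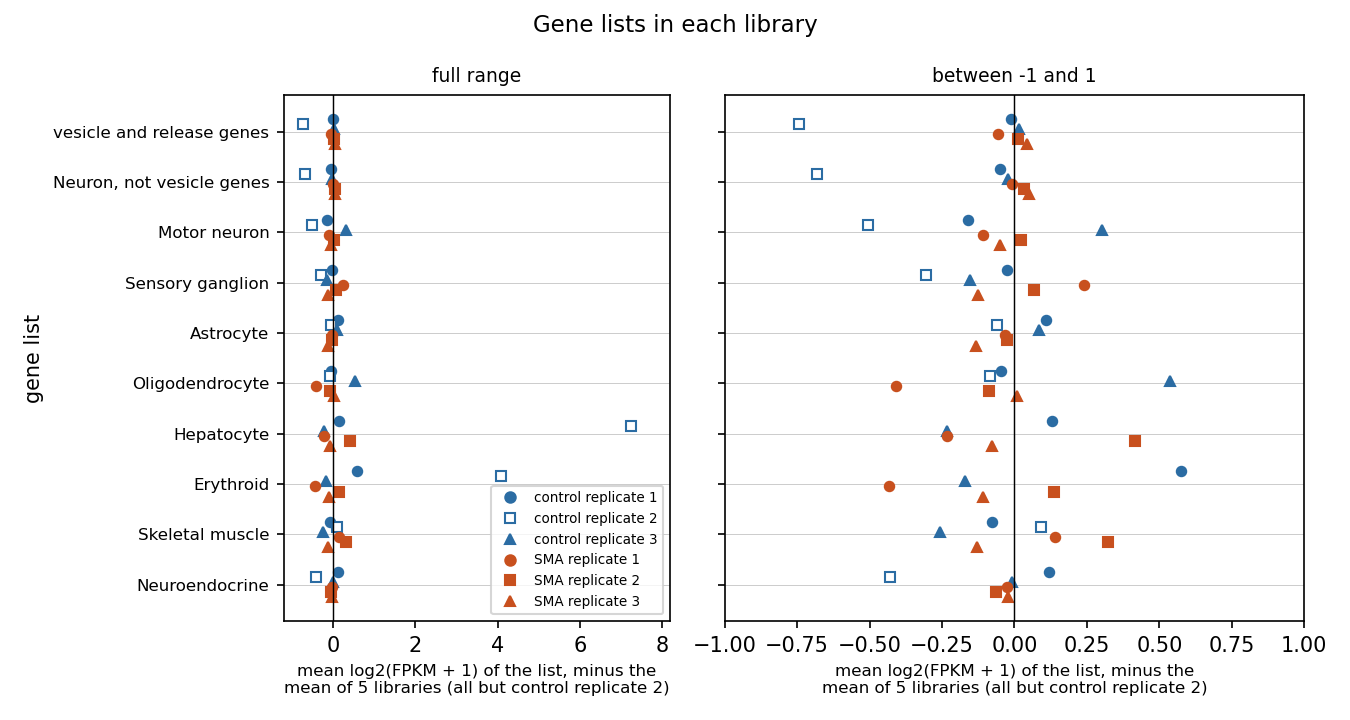
Mean log2(FPKM + 1) of each gene list in each library, relative to the mean of the 5 libraries other than control replicate 2 (open square), over the full range on the left and between -1 and 1 on the right, where the hepatocyte and erythroid lists of control replicate 2 lie outside the panel. The vesicle and release genes and the other neuronal genes were lowest in control replicate 2, and the hepatocyte and erythroid genes highest.

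The targeted gene did not separate the groups. Smn1 was at 10.4, 8.64 and 11.9 FPKM in the libraries labelled control and at 8.48, 9.30 and 11.1 FPKM in those labelled SMA. The values overlapped, also without control replicate 2. The allele disrupts part of the gene, so that a value over the whole gene need not show it, and the labels have no check in these values.

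The sequence before the start of transcription is shown for 6 genes that RefSeq lists. They are among the genes whose values differed between the groups or which form pairs that differed. Not all such genes are shown, Erc2 and Sncb being left out. Promoters of 300 bases were matched by symbol for 30 of the 37 genes, with 41 start sites among them (RefSeq, build GRCm38.p6). The GC box, GGGCGG on either strand, which is bound by Sp1-type factors, was in 27 of the 41, or 65.9%, against 35.7% of all 32851 promoters of this length in the table. The CCAAT motif, on either strand, was in 22.0% of the 41 and 37.4% of all, and TATAAA in 4.88% and 13.6%. The median GC content was 62.3% in the 41 and 52.7% in all. The stretches below run 5′ to 3′ on the coding strand and end before a first exon annotated by RefSeq or GENCODE, with GC boxes in capitals. The locus of the FPKM value of Syt2 begins at chr1:134646677, so that its stretch lies inside this locus and not before it. Syp lies on the plus strand at chrX:7638330-7638470, Synpr on the plus strand at chr14:13284639-13284779, Sv2c on the minus strand at chr13:96132578-96132727, Syt1 on the minus strand at chr10:109010983-109011132, Syt2 on the plus strand at chr1:134709150-134709299 and Pclo on the plus strand at chr5:14514768-14514917. For genes with 2 listed starts the start nearest to a GENCODE start was used. Syp and Syt1 have a GC box in a promoter of 300 bases but none in the stretch shown, and the stretch of Syp leaves out 109 bases before the RefSeq start. A match describes the letters only, and no match says nothing of a factor.
Syp: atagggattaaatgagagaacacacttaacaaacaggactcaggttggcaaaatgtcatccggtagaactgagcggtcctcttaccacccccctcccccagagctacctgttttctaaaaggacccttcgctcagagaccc
Synpr: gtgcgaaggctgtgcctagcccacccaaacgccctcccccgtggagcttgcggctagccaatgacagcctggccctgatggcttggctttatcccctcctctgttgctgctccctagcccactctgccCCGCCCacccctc
Sv2c: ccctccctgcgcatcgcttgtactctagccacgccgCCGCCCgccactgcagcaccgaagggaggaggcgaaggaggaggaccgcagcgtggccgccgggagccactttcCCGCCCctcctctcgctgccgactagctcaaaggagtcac
Syt1: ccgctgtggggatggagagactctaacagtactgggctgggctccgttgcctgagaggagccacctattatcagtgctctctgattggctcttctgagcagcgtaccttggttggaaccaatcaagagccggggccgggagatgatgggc
Syt2: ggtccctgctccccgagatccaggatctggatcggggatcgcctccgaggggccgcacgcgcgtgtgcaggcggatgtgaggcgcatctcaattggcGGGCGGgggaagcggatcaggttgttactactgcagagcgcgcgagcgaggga
Pclo: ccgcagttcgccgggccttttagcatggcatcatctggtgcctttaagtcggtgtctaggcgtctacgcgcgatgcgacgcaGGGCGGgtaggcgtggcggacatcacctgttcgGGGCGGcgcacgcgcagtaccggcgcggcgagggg

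In level, the 37 genes spanned a mean of 16.0 to 226 FPKM over the 6 libraries, with a median of 61.5 FPKM. The most abundant was Atp6v0c, which encodes the ring subunit of the proton pump, followed by the vesicle SNARE gene Vamp2 at a mean of 181 FPKM and the vesicle membrane protein gene Syp (synaptophysin) at 164 FPKM. The lowest was the active zone scaffold gene Rims2 at 16.0 FPKM. The 5 libraries other than control replicate 2 were close to each other. The 3 SMA libraries had a median coefficient of variation of 3.84% per gene, and control replicates 1 and 3 differed by a median of 4.23% of their mean, with a largest gap of 28.4%. Among the SMA libraries, replicate 1 held the lowest value for 28 of the 37 genes.

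**Figure D2:**
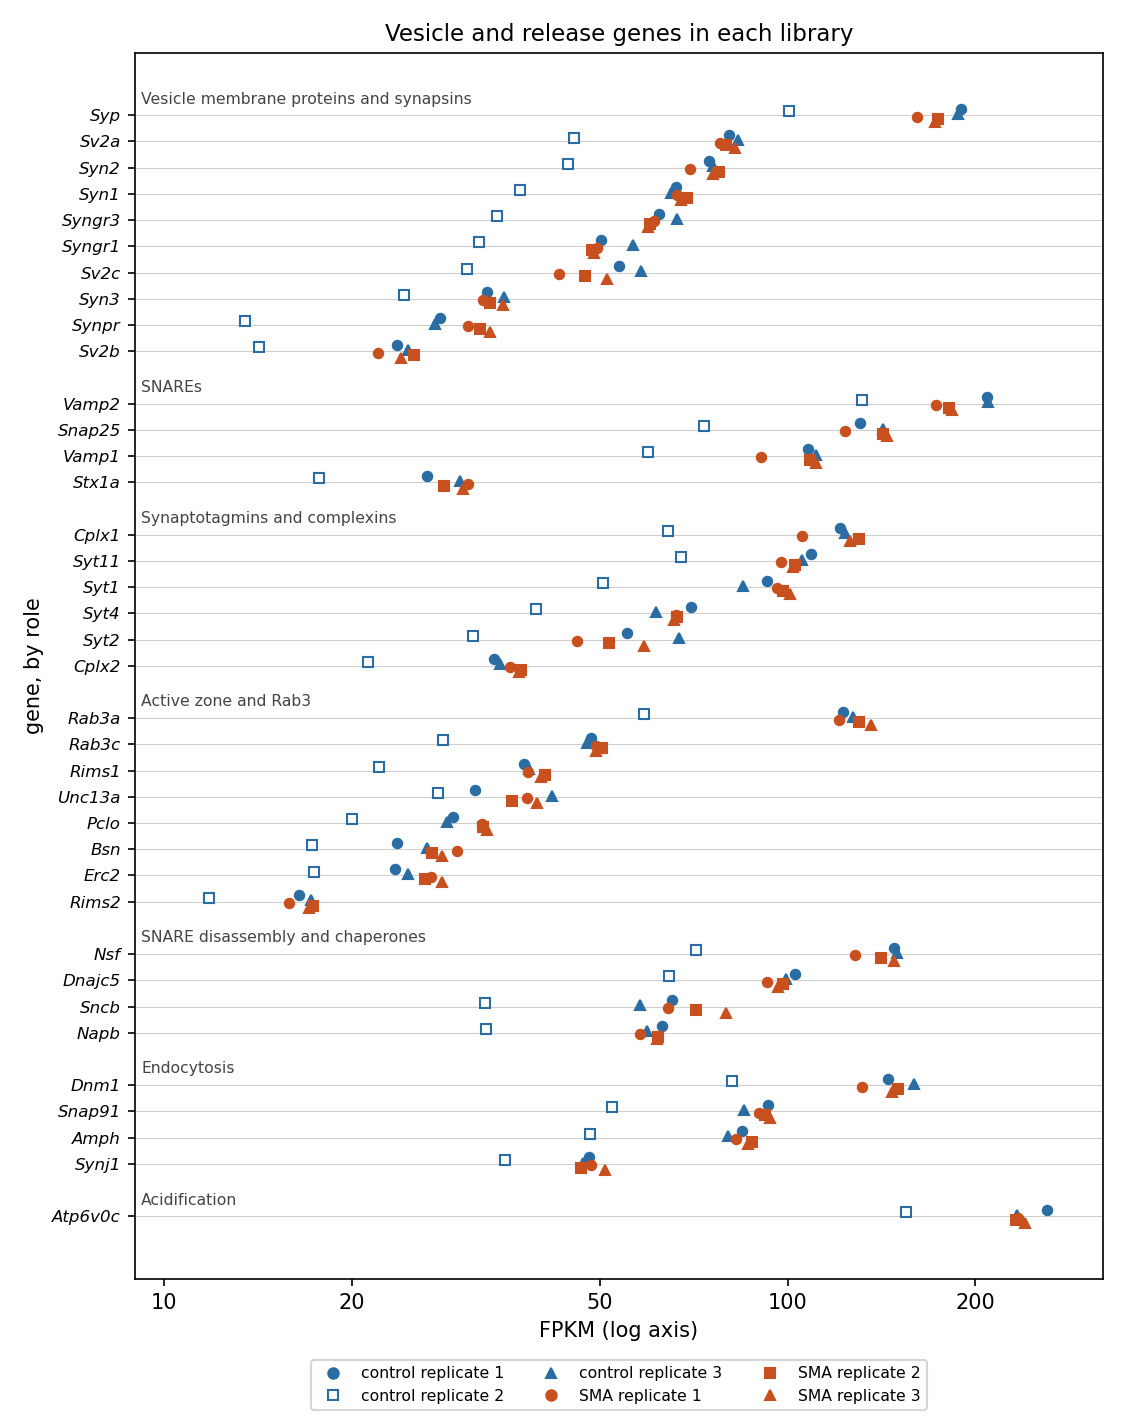
FPKM, on a log axis, of the 37 vesicle and release genes in each library, grouped by role and ordered by level within a role. Control replicate 2 (open square) is the lowest of the 6 libraries for every gene, and the other 5 lie close together.

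With all 6 libraries, no vesicle and release gene passed an adjusted p of 0.05 in limma, as none of all genes did (0%). None passed an unadjusted p of 0.05 either, against 2.39% of all genes lower in SMA and 3.4% higher. The smallest unadjusted p was 0.0611, for Pclo. Of the 37 genes, 36 had a log2 fold change above 0 and 1, Vamp2, below, with a median of 0.25 beside 0.04 over all genes. Fold changes here are differences of group means of log2(FPKM + 1), SMA minus control. The 95% intervals reached a median of 0.51 to either side. The groups did not overlap for 8 genes that were higher in all SMA libraries (Syn1, Synpr, Syt1, Cplx2, Rab3c, Bsn, Pclo and Erc2), against 10.3% of all genes. As control replicate 2 was lowest for all 37 genes, none could be lower in all SMA libraries than in all controls. The 0 lower genes, against 6.67% of all genes, were thus fixed by that library, and the 8 higher ones rested on control replicates 1 and 3. By the thresholds of the study's methods, an unadjusted p under 0.05 with a fold over 2, none of the 37 was called, as none passed the first. The share of all genes that pass both is not given here.

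The same genes looked different once control replicate 2 was left out. The median log2 fold change was -0.01, as over all genes at 0.00, with 17 genes above 0 and 20 below. At an unadjusted p under 0.05, 3 genes were lower in SMA (Vamp2, Sv2c and Syp) and 4 higher (Synpr, Pclo, Erc2 and Syt1), against 5.2% of all 16574 genes tested lower and 5.27% higher. None passed the adjusted threshold, as 0.0121% of all genes did (Snora74a and Rpph1, genes of small noncoding RNAs). The smallest adjusted p of a vesicle gene, from limma with Benjamini-Hochberg adjustment over all genes, was 0.308 in this fit and between 0.186 and 0.907 over all settings tried. The groups did not overlap for 8 genes lower in SMA, against 13.9% of all genes, and for 8 genes higher, against 14.2%. The 8 higher genes were the same as with all libraries. The intervals were narrower, reaching a median of 0.15 to either side, and no interval of any of the 37 genes reached below -0.50 or above 0.44. None had a fold over 2. The other fits without control replicate 2 reuse the same libraries or part of them, some with a lone control. They are thus no independent check of the genes picked here. Over the 9 fits without control replicate 2, Vamp2 and Synpr had an unadjusted p under 0.05 in 9, Sv2c and Pclo in 6, Syp in 5, and Erc2 and Syt1 in 4.

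**Figure D3:**
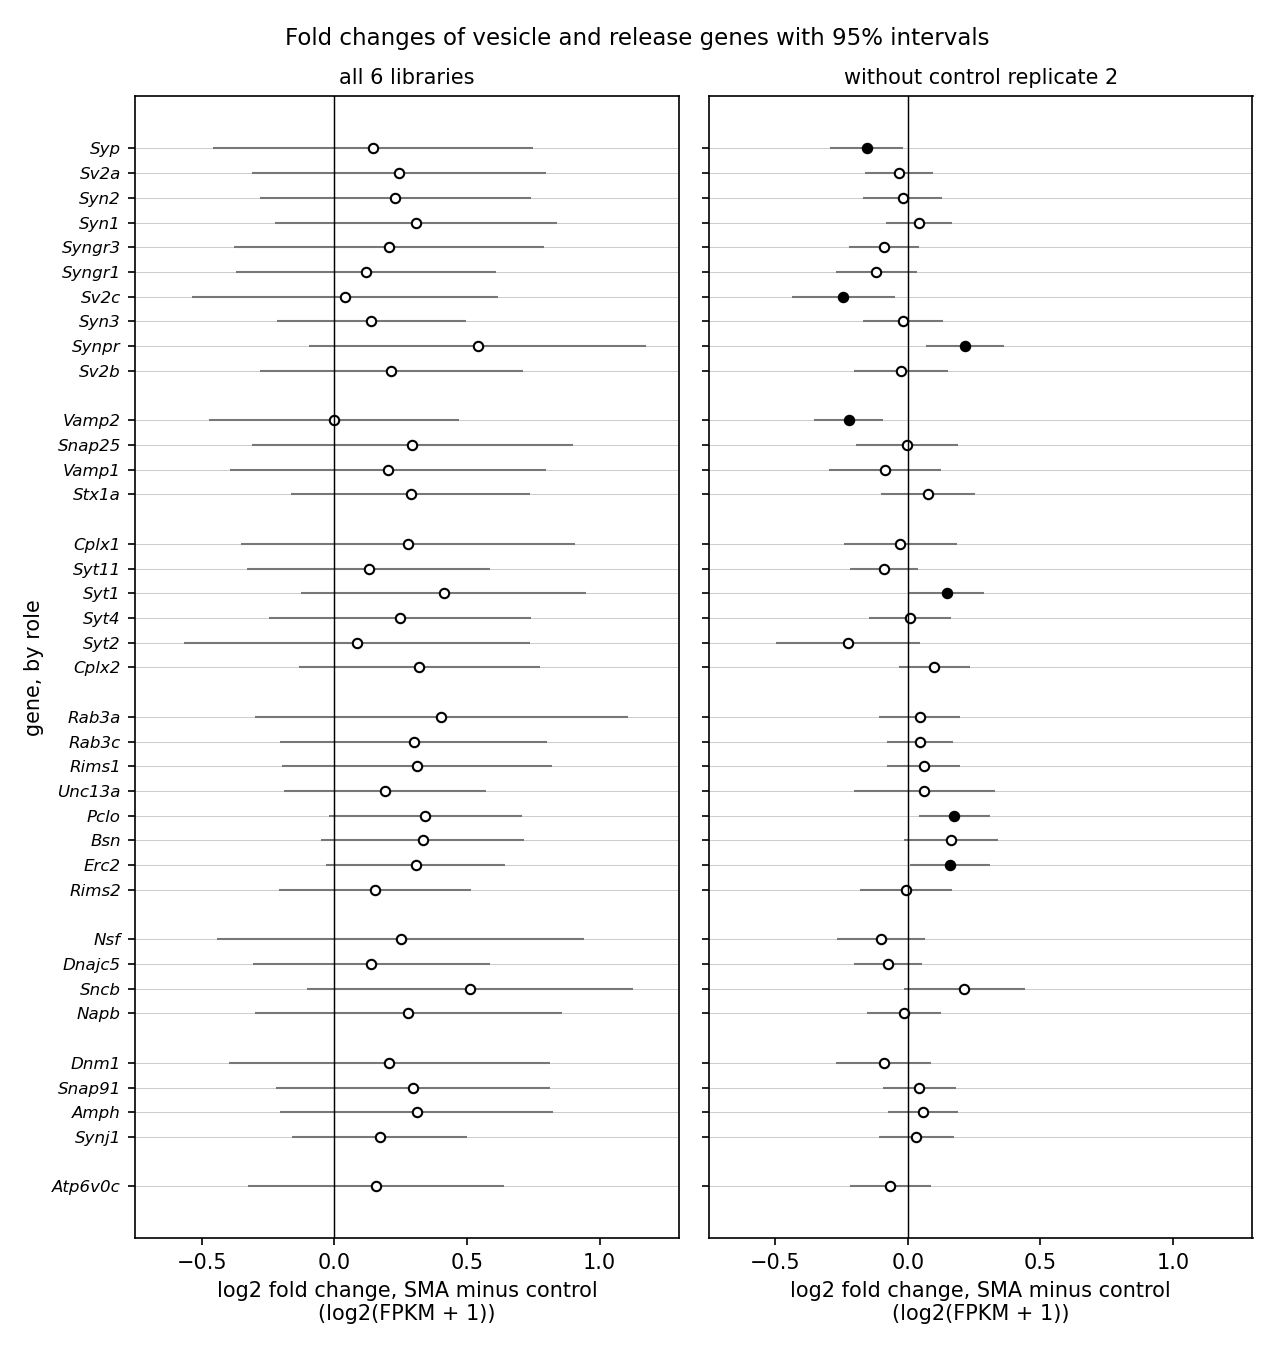
Log2 fold change (SMA minus control, on log2(FPKM + 1)) of each vesicle and release gene with its 95% interval, from limma with all 6 libraries on the left and without control replicate 2 on the right. Filled points have an unadjusted p under 0.05. With 6 libraries 36 of 37 genes lie above 0, and without control replicate 2 they lie on both sides of it.

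Among the SNAREs, Vamp2, the main vesicle SNARE of the brain (synaptobrevin), gave the smallest p without control replicate 2 and the largest with 6 libraries (p 0.998). It was at 209 FPKM in control replicates 1 and 3 and at 132 in control replicate 2, against 173, 181 and 184 FPKM in the SMA libraries. All SMA libraries were thus below control replicates 1 and 3 and above control replicate 2. The log2 fold change was -0.00 with 6 libraries and -0.22 without control replicate 2 (95% interval -0.35 to -0.09, unadjusted p 0.00467 in limma), and the SMA mean differed from that of control replicates 1 and 3 by -14.3%. In all 9 fits without control replicate 2 it was below 0 at an unadjusted p under 0.05. The presynaptic membrane SNARE gene Snap25 was at 131, 73.3 and 142 FPKM in control and 124, 142 and 144 in SMA, and Vamp1, the vesicle SNARE prominent in motor neurons, at 108, 59.7 and 111 FPKM in control and 90.8, 109 and 111 in SMA. Both overlapped between the groups, with SMA replicate 1 the lowest of its group, and their log2 fold changes were 0.29 and 0.20 with 6 libraries and -0.00 and -0.09 without control replicate 2. Stx1a, the syntaxin partner, was at 0.29 and 0.08.

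Of the 10 genes for vesicle membrane proteins and synapsins, 8 were below 0 without control replicate 2 and 2 above, with a median of -0.03 (0.21 with 6 libraries). Syp was at 189.7, 100.4 and 187 FPKM in control and at 161, 174 and 172 in SMA. As for Vamp2, the SMA values fell between control replicate 2 and the other controls. Its log2 fold change was 0.15 with 6 libraries (p 0.583) and -0.16 without control replicate 2 (interval -0.29 to -0.02, p 0.0311). Sv2c, of the SV2 family of vesicle glycoproteins, was at 53.7, 30.6 and 58.2 FPKM in control and 43.0, 47.4 and 51.4 in SMA, with log2 fold changes of 0.04 and -0.24 (interval -0.44 to -0.05, p 0.0216). Sv2a, the widespread family member, was at -0.03 (0.24 with 6 libraries), and its values overlapped.

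Synpr, which encodes synaptoporin, a relative of synaptophysin found at subsets of synapses, went the other way. It was at 27.8, 13.5 and 27.2 FPKM in control and at 30.7, 32.1 and 33.4 in SMA, so that every SMA library exceeded every control library. The log2 fold change was 0.54 with 6 libraries (interval -0.09 to 1.18, p 0.0837) and 0.21 without control replicate 2 (interval 0.07 to 0.36, p 0.0104). In all 9 fits without control replicate 2 it was above 0 at an unadjusted p under 0.05. Synpr also had the smallest share left in control replicate 2 of all 37 genes, at 44.5% of the mean of the others. The synapsins, which tether vesicles to each other, had log2 fold changes of 0.31 for Syn1, 0.23 for Syn2 and 0.14 for Syn3 with 6 libraries, and of 0.04, -0.02 and -0.02 without control replicate 2.

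Of the calcium sensors, Syt1, the main fast sensor of the forebrain, was at 92.8, 50.6 and 85.0 FPKM in control and at 96.0, 98.3 and 101 in SMA, with no overlap. Its log2 fold change was 0.41 with 6 libraries (p 0.112) and 0.15 without control replicate 2 (interval 0.01 to 0.29, p 0.0437). Syt2, the fast sensor of spinal cord, brainstem and neuromuscular junction, was at 55.3, 31.3 and 66.9 FPKM in control and at 45.9, 51.7 and 58.8 in SMA. SMA replicate 3 was above control replicate 1, so the groups overlapped, and the log2 fold changes were 0.09 with 6 libraries (p 0.761) and -0.23 without control replicate 2 (interval -0.50 to 0.05, p 0.0916). Control replicates 1 and 3 were themselves farther apart for Syt2 than the SMA mean was from control replicate 1. Syt4 and Syt11, which do not bind calcium as Syt1 does, were at 0.25 and 0.13 with 6 libraries and at 0.01 and -0.09 without control replicate 2. The complexin genes Cplx1 and Cplx2 were at 0.28 and 0.32 with 6 libraries and at -0.03 and 0.10 without it, and Cplx1 was lowest within SMA in replicate 1, at 106 FPKM against 130.3 and 126.

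Of the 8 genes for active zone proteins and Rab3, the vesicle GTPase, 7 were above 0 without control replicate 2, against 50.4% of all genes, with a median of 0.06 (0.31 with 6 libraries). Pclo, the gene of the giant scaffold piccolo, was at 29.1, 19.99 and 28.4 FPKM in control and at 32.4, 32.5 and 32.9 in SMA. Erc2, which encodes another active zone scaffold, was at 23.5, 17.4 and 24.6 FPKM in control and at 26.8, 26.2 and 27.9 in SMA. Every SMA library was above every control library for both genes. The log2 fold change of Pclo was 0.34 with 6 libraries and 0.18 without control replicate 2 (interval 0.04 to 0.31, p 0.0171), and that of Erc2 was 0.31 (p 0.0680) and 0.16 (interval 0.01 to 0.31, p 0.0403). Bsn, the gene of bassoon, the partner of piccolo, was at 23.6, 17.3 and 26.5 FPKM in control and at 29.6, 26.9 and 28.0 in SMA, with 0.33 and 0.16 (p 0.0777 and 0.0646). Rab3a, the most abundant of this group, and Rab3c were at 0.40 and 0.30 with 6 libraries and at 0.05 each without control replicate 2. Rims2, the only gene of the group below 0 in the latter fit, was at 0.15 and -0.01. With libraries scaled to the neuronal list and control replicate 2 left out, 4 of the 8 were above 0 and Rab3a, Rab3c, Rims1 and Rims2 below. In that fit Pclo was at 0.11, Erc2 at 0.10 and Bsn at 0.10, none with an unadjusted p under 0.05.

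In the remaining roles no gene passed an unadjusted p of 0.05 in either fit. Nsf, the ATPase that takes spent SNARE complexes apart, was at 148, 71.4 and 149.8 FPKM in control and at 128, 141 and 148 in SMA, with log2 fold changes of 0.25 and, without control replicate 2, -0.10. Sncb, the gene of beta-synuclein, was at 65.3, 32.7 and 58.0 FPKM in control and at 64.2, 71.4 and 79.8 in SMA, with 0.51 and 0.21 (p 0.0611 in the latter). SMA replicate 1 lay within the control range, so the groups overlapped. The chaperone gene Dnajc5 was at 0.14 with 6 libraries and -0.07 without control replicate 2. The endocytic genes Dnm1, which encodes the GTPase that pinches vesicles off, Snap91, a clathrin adaptor, and Amph (amphiphysin) were at 0.21, 0.30 and 0.31 with 6 libraries and at -0.09, 0.04 and 0.06 without control replicate 2. Atp6v0c was at 261, 155 and 233 FPKM in control and at 234, 232 and 240.0 in SMA, with 0.16 and -0.07.

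When each library was scaled to the same mean of the neuronal list, the median of the 37 genes was -0.03 with 6 libraries and -0.07 without control replicate 2, beside -0.23 and -0.06 over all genes. Vamp2 was then the only vesicle gene with an unadjusted p under 0.05 with 6 libraries, at -0.28 (p 0.00650), against 5.17% of all genes lower and 0.181% higher. With control replicate 2 left out as well, 9 genes were lower (Vamp2, Sv2c, Syp, Syt2, Syngr1, Syt11, Nsf, Syngr3 and Dnajc5) and 1 higher, Synpr, against 9.51% and 2.47% of all genes. The mean log2(FPKM + 1) of the vesicle genes minus that of the neuronal list was -1.35 in control replicates 1 and 3 and -1.44, -1.40 and -1.39 in the SMA libraries. Control replicate 2 was at -1.45, below all of them.

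A ratio of the FPKM of related genes within a library does not move with its scaling. On the log2 scale of FPKM + 1, where this holds only approximately, 13 pairs were compared by an exact two-sided permutation test over the libraries. With 3 libraries against 3 the smallest p it can give is 0.1, and 0.2 without control replicate 2, so no pair could pass 0.05. In 6 pairs the groups did not overlap, 4 with a higher ratio in SMA and 2 with a lower one, each at the smallest p of 0.1 (0.217 adjusted over the 13 pairs). Control replicate 2 lay outside the range of the other 5 libraries in 8 of the 13 pairs, so the ratios were not free of what sets this library apart.

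The largest difference with 6 libraries was that of Synpr to Syp. Synpr was at 0.146, 0.134 and 0.145 of the FPKM of Syp in control and at 0.191, 0.184 and 0.193 in SMA. The SMA ratios lay above all control ratios, with a gap wider than the range within either group. On the log2 scale of FPKM + 1 the means ± SD were -2.76 ± 0.04 in control and -2.36 ± 0.04 in SMA, a difference of 0.39, or 0.37 without control replicate 2.

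Syt2 to Syt1 gave the largest difference in the other direction, and the largest of all pairs in size without control replicate 2. Syt2 was at 0.596, 0.619 and 0.787 of the FPKM of Syt1 in control and at 0.478, 0.526 and 0.583 in SMA. The highest SMA ratio was just under the lowest control ratio, and control replicate 3 was far above the other controls. The difference in log2 ratio was -0.33, or -0.37 without control replicate 2, with an SD of 0.21 in control and 0.14 in SMA. Sv2c to Sv2a was lower in SMA as well, at 0.667, 0.673 and 0.700 in control and 0.551, 0.596 and 0.623 in SMA, a log2 difference of -0.20, or -0.21 without control replicate 2. For both pairs the lowest ratio was in SMA replicate 1.

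The other pairs without overlap differed by less. Rims1 to Rims2 differed by 0.16, but by 0.07 without control replicate 2, whose FPKM ratio of 1.88 was the lowest against 2.24 to 2.42 in the rest. Syt4 to Syt11 differed by 0.12 and Syn1 to Syn2 by 0.08. With libraries left out in turn, Syn1 to Syn2 ran from 0.04 without SMA replicate 1 to 0.10 without control replicate 1. Vamp1 to Vamp2 overlapped, with 0.516, 0.453 and 0.530 in control and 0.525, 0.600 and 0.604 in SMA. For Bsn to Pclo the log2 difference was -0.01, with values of the groups interleaved.

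**Figure D4:**
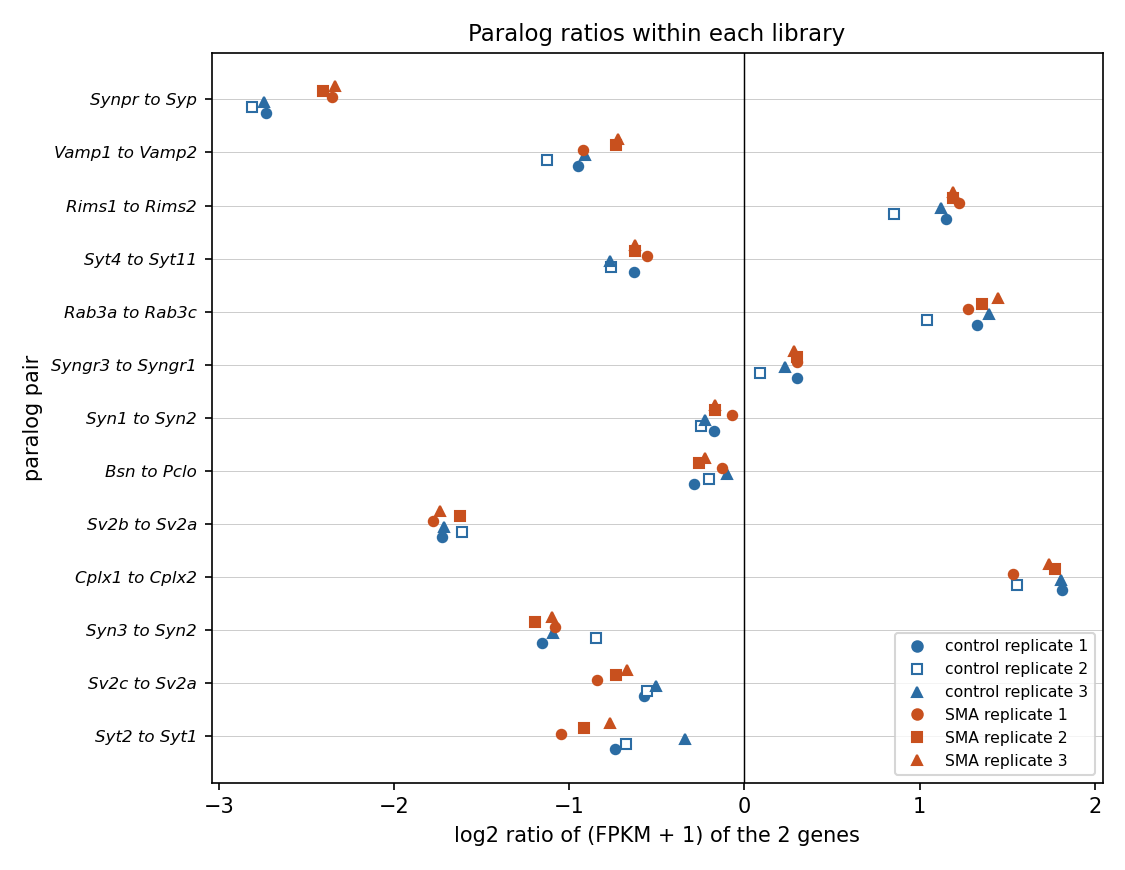
Log2 ratio of (FPKM + 1) of 2 related genes in each library for 13 pairs, ordered by the difference between SMA and control. For Synpr to Syp the 3 SMA libraries lie above the 3 control libraries by more than the spread within the groups, and for Syt2 to Syt1 and Sv2c to Sv2a they lie below.

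Of 105 other genes of the vesicle cycle, 103 were found and 101 tested. With 6 libraries 0 had an unadjusted p under 0.05, and the median log2 fold change was 0.20. In the fit of the other 5 libraries 2 were lower, 5 higher and the median was 0.01, against 5.2% of all genes lower and 5.27% higher, so that the counts did not exceed those shares, and none passed the adjusted threshold in either fit. The lower genes were Atp6v1b2, a subunit of the proton pump, at -0.17 (p 0.0246), and Cltc, the clathrin heavy chain, at -0.14 (p 0.0426). With 6 libraries they were at 0.07 and -0.00. The 3 higher genes with the smallest p were Itsn1, an endocytic scaffold, at 0.15 (p 0.0313), the active zone gene Rims3 at 0.14 (p 0.0338) and the liprin gene Ppfia3 at 0.19 (p 0.0376), and the others were Stx3 and Atp6v1g2. With 6 libraries Itsn1, Rims3 and Ppfia3 were at 0.05, 0.34 and 0.37. Rims3 was at 36.6, 24.0 and 37.3 FPKM in control and at 40.6, 40.8 and 41.1 in SMA, a pattern like that of Pclo, with no overlap and control replicate 2 lowest. In control replicate 2 the 101 genes were at a median of 67.4% of the other libraries, against 57.5% for the 37.

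Markers of the cells that hold the machinery were read beside it. The motor neuron list summed to 58.2, 39.3 and 88.3 FPKM in control and to 58.1, 65.0 and 60.5 in SMA, with Prph its most abundant gene and none of its 6 genes at 0 in any library. Control replicate 3 was the highest for this list, as it was for Syt2, and control replicate 2 the lowest. The oligodendrocyte list summed to 812, 795 and 1202 FPKM in control and 645, 796 and 820.2 in SMA, again with control replicate 3 highest and SMA replicate 1 lowest, and Mbp was its most abundant gene. The astrocyte list, led by Fabp7, summed to 988, 716 and 962 FPKM in control and 792, 787 and 736 in SMA. The neuronal list summed to 3096, 2333 and 3426 FPKM in control and 3363, 3414 and 3490 in SMA. No gene of these lists was at 0 in any library. The part of these lists in the differences of Syt2, Sv2c, Vamp2 and Syp was not tested.

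Markers of sensory ganglion and skeletal muscle were low in all libraries. The sensory ganglion list summed to 1.79, 0.332 and 1.14 FPKM in control and 3.38, 2.29 and 1.18 in SMA, with 2 of its 6 genes at 0 in control replicate 2. The skeletal muscle list, led by Actn2, summed to 5.58, 6.61 and 4.40 FPKM in control and 7.82, 10.4 and 4.94 in SMA, and Tnnc2 was at 0 in 4 of the 6 libraries and Mylpf in control replicate 3. The neuroendocrine list, led by Chga, summed to 72.4, 38.5 and 64.0 FPKM in control and 64.4, 71.1 and 69.5 in SMA, so that it too was lowest in control replicate 2. The most abundant erythroid gene was Hbb-bs, at 7026 FPKM in control replicate 2 and 424 to 694 in the other libraries.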

How the data were processed

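The authors aligned reads of strand-specific libraries without ribosomal RNA with HISAT2 and computed FPKM per library with Cufflinks. The submitters' processing notes name mm10, and versions are not given in the sources used here. The deposited FPKM were used as they are, with 0 for a gene that a file does not list. The loci of all 37 genes overlapped their gene in GENCODE M21. SMA was compared with control on log2(FPKM + 1) by lmFit and eBayes with a trend in limma 3.58.1 (R 4.3.3), over genes whose mean reached 0.5 FPKM. P-values are two-sided, with Benjamini-Hochberg adjustment over every gene tested. Related genes were compared by an exact permutation test in scipy 1.17.1 (Python 3.11.15). The fit was tested on simulated data. The count test of the study's methods was not run, since the values are not counts.

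FPKM hold no read counts, so depth is unknown and no interval for counting error is given. From the ratio that was most common among values under 0.15 FPKM, depth relative to SMA replicate 1 was between 1.00 and 1.15.

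Named in the text are, in each role, the 2 genes with the highest mean, those with the largest fold change with 6 libraries and without control replicate 2, genes with an unadjusted p under 0.05 in either fit and genes of the pairs described. Of the other vesicle genes up to 3 in each direction are named, of each marker list the most abundant gene, and Smn1. Some genes that this would name are not reported here. Genes behind some small counts are named too. Other names, such as Stx1a, Syngr1, Syngr3 and Snhg11 and the genes without overlap, were chosen after their values were seen. The members and lists were chosen with earlier results of these data known. Alternatives were a pseudocount of 0.1, no filter or a minimum of 1 FPKM, equal totals, quantile normalization, median ratio scaling, scaling to the neuronal list, robust eBayes, a replicate block and leaving out each library. Fits without control replicate 2 that also change the scaling or leave out another library were added after the data had been seen.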

Additional observations from a re-analysis of the deposited data

How the results depend on the processing

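The number of vesicle and release genes at an adjusted p under 0.05 in limma was 0 under all 23 alternatives. At an unadjusted p under 0.05 it was 0 lower and 0 higher with 6 libraries, and also with a pseudocount of 0.1, no filter, a minimum of 1 FPKM, equal totals and robust eBayes. It was 0 lower and 1 higher (Pclo) with quantile normalization, 0 and 2 (Erc2 and Pclo) with median ratio scaling, and 1 and 0 with scaling to the neuronal list. Without control replicate 2 it was 3 and 4. It was 0 and 3 without control replicate 1 (Sncb, Syt1 and Pclo) or without control replicate 3 (Bsn, Unc13a and Erc2). Leaving out each SMA library in turn gave 0 in both directions. With control replicate 2 left out it was 9 and 1 with scaling to the neuronal list, 4 and 4 with quantile normalization, and 3 and 4 with median ratio scaling. With an SMA library left out too it was 1 and 3, 1 and 1, and 3 and 1 (SMA replicates 1 to 3). A lone control is assumed to vary like the other group, so no counts are given for fits that leave a lone control.

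Among all genes, 0 passed the adjusted threshold with 6 libraries and 0 to 43 with libraries left out, the highest without control replicates 1 and 2. It was 2 without control replicate 2, and there 1 with scaling to the neuronal list, 2 with quantile normalization and 1 with median ratio scaling, and 3, 0, 0 and 1 with control replicate 3 or SMA replicates 1 to 3 left out too. At an unadjusted p under 0.05 the genes lower and higher in SMA were 409 and 581 with 6 libraries, 491 and 882 without a filter, 386 and 338 with equal totals, 565 and 528 with median ratio scaling, and 884 and 31 with scaling to the neuronal list. With quantile normalization they were 337 and 639. Leaving out each library in turn gave 125 to 862 lower and 214 to 1040 higher, with 862 and 874 without control replicate 2, and there 1576 and 410 with scaling to the neuronal list. Also without control replicate 2 they were 867 and 876 with quantile normalization and 897 and 838 with median ratio scaling. With SMA replicates 1 to 3 left out too they were 796 and 607, 546 and 583, and 533 and 524. The median of the vesicle genes was 0.25 with 6 libraries, -0.03 with scaling to the neuronal list and between -0.03 and 0.39 with libraries left out. It was -0.07 without control replicate 2 and with scaling to the neuronal list.

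Under scaling to the neuronal list, 19 genes changed sign: Syn2 -0.0450, Syn3 -0.14, Syp -0.13, Syngr1 -0.16, Syngr3 -0.0686, Sv2a -0.0308, Sv2b -0.0602, Sv2c -0.23, Vamp1 -0.0724, Syt2 -0.19, Syt4 -0.0265, Syt11 -0.15, Rims2 -0.12, Unc13a -0.0843, Nsf -0.0249, Dnm1 -0.0688, Synj1 -0.10, Atp6v0c -0.12 and Dnajc5 -0.14. Sv2c was at -0.0169 with median ratio scaling, and Vamp2 at 0.0227 with equal totals and 0.00765 with quantile normalization. With each library left out in turn, 20 genes changed sign, and the log2 fold change ran from -0.0189 to 0.36 for Syn2, -0.0180 to 0.24 for Syn3, -0.16 to 0.30 for Syp, -0.12 to 0.28 for Syngr1, -0.0900 to 0.38 for Syngr3, -0.0333 to 0.39 for Sv2a, -0.0256 to 0.35 for Sv2b, -0.24 to 0.21 for Sv2c, -0.00248 to 0.47 for Snap25, -0.0853 to 0.36 for Vamp1, -0.22 to 0.11 for Vamp2, -0.23 to 0.31 for Syt2, -0.0897 to 0.25 for Syt11, -0.0283 to 0.44 for Cplx1, -0.00641 to 0.25 for Rims2, -0.10 to 0.43 for Nsf, -0.0133 to 0.44 for Napb, -0.0908 to 0.39 for Dnm1, -0.0654 to 0.31 for Atp6v0c and -0.0733 to 0.26 for Dnajc5. Each lowest value was that without control replicate 2. Among these settings, Syt4, Unc13a and Synj1 changed sign only under scaling to the neuronal list. The remaining 14 genes, Syn1, Synpr, Snap91, Stx1a, Syt1, Cplx2, Rab3a, Rab3c, Rims1, Bsn, Pclo, Erc2, Amph and Sncb, kept their sign under all of these. In the 9 fits without control replicate 2, Synpr, Syt1, Cplx2, Bsn, Pclo, Erc2 and Sncb were above 0 in all. Below 0 were Syn1 (-0.0178), Stx1a (-0.00774), Rab3a (-0.0151), Rab3c (-0.0137), Rims1 (-0.000640) and Amph (-0.00361) in 1 each and Snap91 in 2 (lowest -0.0185). Of the 3 genes that otherwise changed sign only with neuronal scaling, Syt4 was below 0 in 3 of these fits (lowest -0.0810). Synj1 was below 0 in 2 (lowest -0.0287) and Unc13a in 1 (-0.139). The cause was not tested.

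Of the 13 pairs, 5 changed sign with a library left out: Cplx1 to Cplx2 (-0.13 to 0.0321), Sv2b to Sv2a (-0.0744 to 0.00770), Syn3 to Syn2 (-0.15 to 0.000870), Rab3a to Rab3c (-0.00137 to 0.18) and Bsn to Pclo (-0.0554 to 0.0393). The other 8, Synpr to Syp and Syt2 to Syt1 among them, kept theirs.

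With the replicate number as a block the median of the vesicle genes was 0.25, and 0 vesicle genes passed either threshold. Among all genes 303 were lower and 356 higher, against 409 and 581 without the block. No clear pairing by number was seen. Deviations from the group means correlated at -0.04, 0.02 and 0.08 between libraries of the same number. The last, of replicate 3, was the highest of all pairs, but not every library correlated best with its own number. Control replicate 2 enters the control mean, so that this check cannot exclude a pairing. FPKM give no read depth, so what a low count limits cannot be given here.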

Other observations

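Some marker genes of other cells had an unadjusted p under 0.05 in limma without control replicate 2, none with an adjusted p under 0.05. With 6 libraries none of those named here had an unadjusted p under 0.05. They lie outside the naming rule and were chosen after their values were seen. The radial glia and astrocyte gene Fabp7 was at 626, 395 and 577 FPKM in control and at 440.5, 421 and 414 in SMA, with a log2 fold change of -0.50 without control replicate 2 and -0.30 with 6 libraries. Its SMA values were below control replicates 1 and 3 and above control replicate 2. The astrocyte water channel gene Aqp4 was at 111, 87.8 and 109 FPKM in control and at 97.5, 93.7 and 87.8 in SMA, a log2 fold change of -0.24, or -0.13 with 6 libraries. The other 3 astrocyte genes overlapped between the groups, with Aldh1l1 at 0.03, Slc1a3 at -0.00 and Gfap at -0.10, or -0.26, 0.14 and -0.00 with 6 libraries. The myelin genes Mag and Cnp were at -0.46 and -0.27, or -0.31 and -0.18 with 6 libraries. Mbp, at -0.39 and -0.28, did not pass an unadjusted p of 0.05. For Mag, control replicate 3 was the highest at 76.5 FPKM, and control replicate 1, at 50.5 FPKM, was close to SMA replicate 3 at 50.4.

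Among neuronal genes, Rbfox3, the gene of the neuronal nuclear protein NeuN, was at 35.3, 23.9 and 34.7 FPKM in control and at 38.0, 41.2 and 42.8 in SMA, a log2 fold change of 0.21 without control replicate 2 and 0.39 with 6 libraries. The microtubule gene Dcx was at 83.7, 56.4 and 74.4 FPKM in control and at 90.3, 86.4 and 87.5 in SMA, with 0.16 and 0.32. For both, every SMA library was above every control library. The other 10 genes of the neuronal list did not pass an unadjusted p of 0.05 and lay on both sides of 0, with Elavl4 at -0.16, lower in all SMA libraries than in control replicates 1 and 3, Gap43 at -0.04, Uchl1 at -0.02 and Ina at -0.01 without control replicate 2. With 6 libraries these 4 were above 0, at 0.16, 0.28, 0.30 and 0.27. Above 0 without control replicate 2 were Meg3 at 0.17, Elavl3 at 0.13, Tubb3 at 0.12, Snhg11 at 0.09, Stmn2 at 0.05 and Map2 at 0.02. Elavl3 and Tubb3 were higher in every SMA library than in every control library. Slc5a7, which encodes the choline transporter of cholinergic terminals, was at 9.38, 5.03 and 12.5 FPKM in control and at 7.49, 8.38 and 9.32 in SMA, with -0.34 without control replicate 2 and -0.01 with 6 libraries, and all SMA libraries were below control replicates 1 and 3. The vesicular acetylcholine transporter gene Slc18a3 was at 9.07, 6.51 and 14.8 FPKM in control and at 12.7, 14.9 and 13.1 in SMA, with 0.20 and 0.45, and its values overlapped and did not pass an unadjusted p of 0.05.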
